A study of Mus musculus with 6 samples.

Results

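The MYC, MAX and MXD network is a group of transcription factors with a basic helix-loop-helix leucine zipper that compete for shared dimer partners. Its 10 members examined here are Myc, Mycn, Max, Mxd1, Mxi1, Mxd3, Mxd4, Mnt, Mlx and Mga, taken by symbol from the 24794 genes of the deposited count table. Each symbol matched 1 gene. The cells were LLC cells, the Lewis lung carcinoma line, a transplantable mouse lung tumour line. In 3 libraries they had been transfected with miR-291-3 mimics, which are double-stranded RNAs that stand in for a mature microRNA, and in 3 with mimics control. The series' text names the microRNA as miR-291a-3p, and the labels give neither dose nor time.

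MYC binds DNA as a dimer with MAX and activates genes for ribosome production, metabolism and cell growth. The MXD proteins (Mxd1, Mxi1, Mxd3, Mxd4) and MNT take MAX for themselves, bind the same E-box sequence CACGTG and recruit SIN3 corepressors, so that they oppose MYC. MGA pairs with MAX inside a variant Polycomb repressive complex, and MLX pairs with the glucose-sensing factors MondoA and ChREBP and with some MXD proteins. High MYC with low MXD is typical of dividing cells.

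The microRNA acts through its seed, bases 2 to 8 from the 5′ end, shown here in capitals. The label's name miR-291-3 could also be read as miR-291b-3p, so both are given, from RefSeq on GRCm38.p6, together with miR-294-3p of the same cluster. The seeds of miR-291a-3p and miR-294-3p are identical, while miR-291b-3p shares bases 2 to 7 only. Only the miR-291a-3p seed was searched for below. Its 7mer-m8 and 8mer matches pair base 8 as well, which miR-291b-3p would not pair there.
miR-291a-3p: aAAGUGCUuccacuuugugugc
miR-291b-3p: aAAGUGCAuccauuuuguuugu
miR-294-3p: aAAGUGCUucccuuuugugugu

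The members' 3′ UTRs were searched for the complement of the miR-291a-3p seed in the longest annotated 3′ UTR per gene (GENCODE M21 on GRCm38, not the build of the deposited values). Among 11585 tested genes with an annotated 3′ UTR, 3.59% held an 8mer match (AGCACTTA), 14.1% a 7mer-m8 match (AGCACTT) as their best, 3.22% a 7mer-A1 match (GCACTTA) and 12.5% a 6mer (GCACTT). Myc, Max and Mlx held no match of any kind, in any of their annotated coding transcripts. Mxd1, Mxi1, Mxd3 and Mnt, all repressors of the network, held a 7mer-m8 match, as did Mycn. Mga held 2 8mer matches and a 7mer-m8 match, and Mxd4 a 6mer alone. The windows below have the length of the microRNA and end opposite its first base, with the matched bases in capitals. They are the sites of the members that the results turn on.
Mxd3: agggaatttcatgtAGCACTTg
Mxi1, upstream site: acatagttacgttcAGCACTTg
Mxi1, downstream site: tttgtgcctgcaaaAGCACTTc
Mnt: ctatccatgtaataAGCACTTg
Mxd1: ctctgtattcttagAGCACTTg
Mga, first 8mer: acacttgtaattccAGCACTTA
Mga, second 8mer: ctagacaggtcatcAGCACTTA

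The Mxd3 match (chr13:55325600-55325606, minus strand, GRCm38) starts 177 bases into a short 3′ UTR, which has 615 in all. The Mxi1 matches lie at chr19:53372874-53372880 and chr19:53373421-53373427, plus strand, and 3 of the 8 annotated coding transcripts of Mxi1 with a 3′ UTR contain one. The Mnt match (chr11:74845658-74845664, plus strand) begins at base 2338, close to the end of a 2405-base 3′ UTR. The Mxd1 match lies at chr6:86648922-86648928, minus strand, in 1 of 2 coding transcripts. The Mga 8mers lie at chr2:119965450-119965457 and chr2:119966752-119966759, plus strand. A match is a description of the annotated sequence and does not show that the site was used in these cells.

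**Figure D1:**
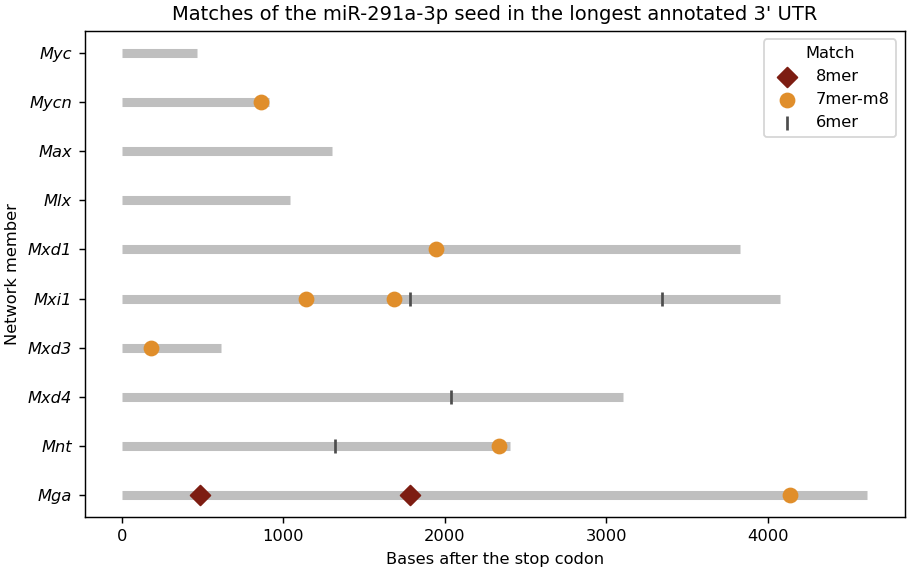
Seed matches along the longest annotated 3′ UTR of each member. The x axis is the number of bases after the stop codon, the grey bar is the 3′ UTR, and the markers are 8mer, 7mer-m8 and 6mer matches of the miR-291a-3p seed. Myc, Max and Mlx have none, and Mga has 2 8mers.

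Library totals ranged from 25376993 to 29058948 counts in the mimic group and from 28318155 to 32963986 in the control group. Of the 24794 genes 13779 passed a filter on low counts and were tested, and 9 of the 10 members were among them. The difference between the groups was broad. At an adjusted p under 0.05 (edgeR quasi-likelihood test, Benjamini-Hochberg adjustment over all genes tested) 49.1% of the tested genes were called, 24.3% as higher and 24.8% as lower after mimic transfection. With total counts in place of TMM scaling, 2341 were called higher and 4444 lower, and the median log2 change over all tested genes was -0.06 in place of -0.01. Whether the replicates were grown as independent cultures is not in the labels, and the p-values cover only how far these libraries vary, possibly for technical reasons. RNA of whole cultures was measured, so that a change in a fraction of the cells and a change in each cell cannot be told apart. Of the lung epithelial markers, Krt8 averaged 552 CPM in mimic libraries and 493 CPM in control libraries, while Epcam, Cdh1 and Sftpb had at most 3, 5 and 1 counts in any library. Of 5 tested leukocyte markers none rose and 2 fell (Lyz2 and Cd14), and their summed level was 11.1 to 12.3 CPM in mimic libraries and 18.1 to 19.8 CPM in control libraries, with Ptprc at 4 counts or fewer in any library. Krt18 rose 1.87-fold, to 3.65 CPM against 1.97 CPM in control libraries. Of 3 tested fibroblast markers Lum rose 2.44-fold, to 1.74 CPM against 0.718 CPM in control libraries. Pdgfrb rose and Pdgfra fell (log2 change -0.58). The summed level of the 3 was 53.2 to 53.9 CPM in mimic libraries and 53.0 to 58.5 CPM in control libraries. Col1a1, of the same list, did not pass the filter on low counts, though it had up to 104 counts in a library. The mitochondrial share of the counts was 3.17% to 3.23% in mimic libraries and 3.67% to 3.80% in control libraries, without overlap. The part of these markers and of this share in the results was not tested.

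Myc was the highest member by level per gene length. It had 182.53, 187.97 and 179.86 FPKM in the mimic libraries, against 144.38, 144.13 and 143.06 FPKM in the control libraries, and ranked 266 among the 13779 tested genes by mean FPKM. Max followed with 49.2 ± 0.742 FPKM in mimic and 44.3 ± 0.921 FPKM in control libraries (SD, n = 3 each), and Mlx with 21.4 ± 1.37 and 24.5 ± 0.911 FPKM in the same order of groups. The repressors lay well below their shared partner MAX. In mimic libraries Mnt had 5.78 ± 0.115, Mxd3 5.30 ± 0.15, Mxi1 5.11 ± 0.462, Mga 3.39 ± 0.0929, Mxd4 1.65 ± 0.0173 and Mxd1 0.453 ± 0.0153 FPKM. In control libraries the order had Mxd3 first of these, at 11.7 ± 0.186 FPKM, then Mnt at 6.98 ± 0.0351, Mxi1 at 6.40 ± 0.117, Mga at 3.53 ± 0.134, Mxd4 at 1.94 ± 0.169 and Mxd1 at 0.467 ± 0.0611 FPKM. Neighbours in these orders did not overlap between libraries, except Mxd3 and Mxi1 in the mimic group.

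**Figure D2:**
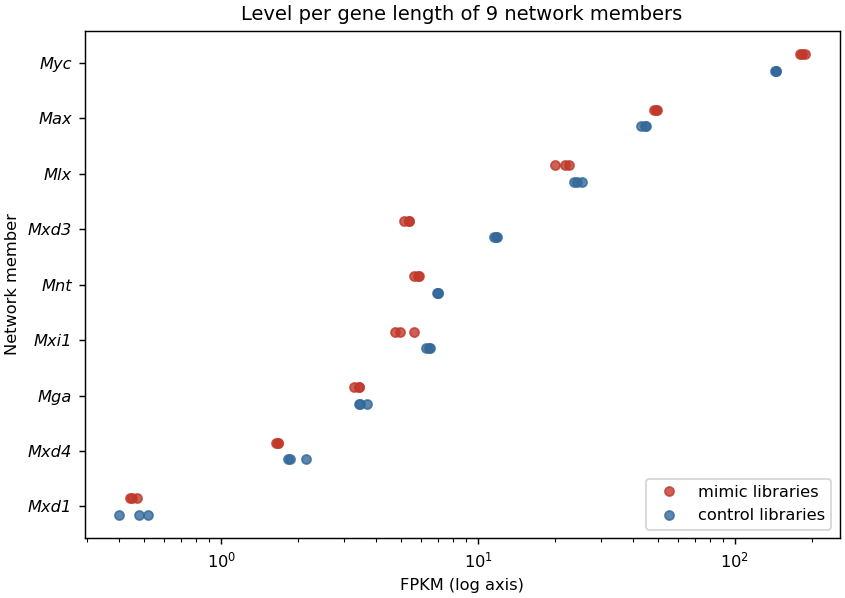
Level per gene length of 9 members. The x axis is FPKM on a log scale, and each point is 1 of the 3 mimic or 3 control libraries. Myc lies highest in both groups, and Mxd3 shows the widest gap between the groups (5.30 against 11.7 FPKM on average).

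Mycn, the neuronal MYC paralogue, was not detectable at this depth. It had 1 count in mimic replicate 1 and 0 in the other 5 libraries, where a count of 0 allows a level of at most 0.108 CPM (3 counts of the library, counting error only). It did not enter the test. Mycl, the third MYC gene, also had at most 8 counts in any library and was not tested.

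In the mimic libraries the activator Myc and its partner Max rose, and 4 of the 6 repressor genes fell. Of the 9 tested members, 2 rose (Myc, Max; 24.3% of all tested genes rose), 5 fell (Mxd3, Mxi1, Mnt, Mxd4, Mlx; 24.8% of all tested genes fell) and 2 did not pass (Mxd1, Mga). Of the 9, 4 lie at a mean of at least 50 CPM, Myc and Max among them. At that level 48.4% of genes rose and 24.2% fell. The same 7 called members were those whose CPM did not overlap between the groups, against 54.9% of all tested genes without overlap. The median log2 change of the 9 was -0.16, against -0.01 over all genes tested. At most 1 of these calls was lost in any alternative processing, that of Mxd4.

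Myc rose 1.31-fold. It had 573.5, 583.3 and 570.2 CPM in the mimic libraries and 442.7, 439.2 and 439.6 CPM in the control libraries. Every mimic library lay above every control library, and the gap was many times the spread within a group. The log2 change was 0.39 ± 0.02 (SE), with a 95% interval of 0.35 to 0.42 and an adjusted p of 9.7e-17 (edgeR). This change lies at percentile 95.3 of all tested genes. The gene lies at chr15:61985391-61990374, on the plus strand of GRCm38.

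Max, the obligate partner of MYC and a shared partner of the repressors, rose 1.14-fold. Its level was 207.5, 202.6 and 203.2 CPM in mimic libraries and 175.5, 181.3 and 181.8 CPM in control libraries, without overlap. The log2 change was 0.19 ± 0.02 (SE; adjusted p = 4.42e-08, edgeR).

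Mxd3, an MXD protein known from S phase of proliferating progenitor cells, had the lowest log2 change of the members and fell by more than a factor of 2. It had 14.8, 13.9 and 14.9 CPM in the mimic libraries and 31.8, 31.3 and 30.9 CPM in the control libraries. The groups were far apart, and the libraries within each differed by about 1 CPM. The log2 change was -1.11 ± 0.05 (SE), with a 95% interval of -1.22 to -1.0025 and an adjusted p of 6.39e-17 (edgeR). It ranked 128 among the 13779 tested genes from the lowest log2 change up, and 182 genes fell at least 2-fold. An exon of the opposite-strand gene Prelid1 covers 105 of the 2369 exon bases of Mxd3, and the strand setting of the counting is not given in the sources used here. Prelid1 had 655 CPM in mimic and 645 CPM in control libraries and was not called (log2 change 0.02, adjusted p = 0.376, edgeR). Reads of Prelid1 could have been counted for Mxd3, and the share of such reads in the Mxd3 counts was not tested.

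Mxi1, the MXD protein also called MXD2, fell to 44.386, 38.765 and 37.758 CPM in mimic libraries, against 50.001, 49.378 and 48.353 CPM in control libraries. Mimic replicate 1 lay closest to the controls, but below all of them. The log2 change was -0.29 ± 0.04 (SE; adjusted p = 2.09e-06, edgeR). Mnt, a broadly expressed antagonist of MYC, fell to 31.4, 30.7 and 30.5 CPM in mimic libraries, against 36.6, 36.2 and 36.3 CPM in control libraries. The spread within each group was under 1 CPM, and the log2 change was -0.24 ± 0.04 (SE; adjusted p = 2.21e-05, edgeR).

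Mxd4 had 16.3, 15.8 and 16.4 CPM in the mimic libraries and 20.4, 17.3 and 17.8 CPM in the control libraries. The groups did not overlap, and control replicate 1 stood above the other two. The log2 change was -0.20 ± 0.06 (SE; adjusted p = 0.0131, edgeR). This call rested on that library among others: without control replicate 1 the log2 change was -0.12 with an adjusted p of 0.152, and it was also lost without mimic replicate 2 (adjusted p = 0.0533) and with the DESeq2 Wald test (adjusted p = 0.054).

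Mxd1, the founding MXD gene, was the lowest of the detected members and did not pass. It had 3.61, 3.76 and 3.72 CPM in mimic libraries and 3.15, 4.16 and 3.87 CPM in control libraries, so that the mimic values lay inside the control range. Its log2 change of -0.01 had a 95% interval of -0.28 to 0.26 (adjusted p = 0.953, edgeR), wide enough to hold a change of the size seen for Mnt. With 90 to 130 counts per library, smaller differences were not detectable at this depth.

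Mga, the only member with 8mer matches, did not pass. It had 58.14, 60.04 and 61.71 CPM in the mimic libraries and 59.30, 63.35 and 60.22 CPM in the control libraries, and the groups overlapped. The log2 change was -0.02 with a 95% interval of -0.09 to 0.05 (adjusted p = 0.649, edgeR), so a fall of the size measured for Mxi1 lies outside the interval. Over all tested genes whose best match was an 8mer, 49.3% fell and 13.0% rose.

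Mlx, the partner of the MondoA branch, had 50.3, 51.6 and 46.4 CPM in mimic libraries and 54.8, 57.1 and 53.6 CPM in control libraries. It fell without overlap, with a log2 change of -0.16 ± 0.04 (SE; adjusted p = 0.00121, edgeR). The opposite-strand gene Psmc3ip covers 385 of the 1999 exon bases of Mlx. Psmc3ip had 20.2 CPM in mimic and 22.2 CPM in control libraries (log2 change -0.14, adjusted p = 0.0588, edgeR), so that reads of either gene could have been counted for the other.

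**Figure D3:**
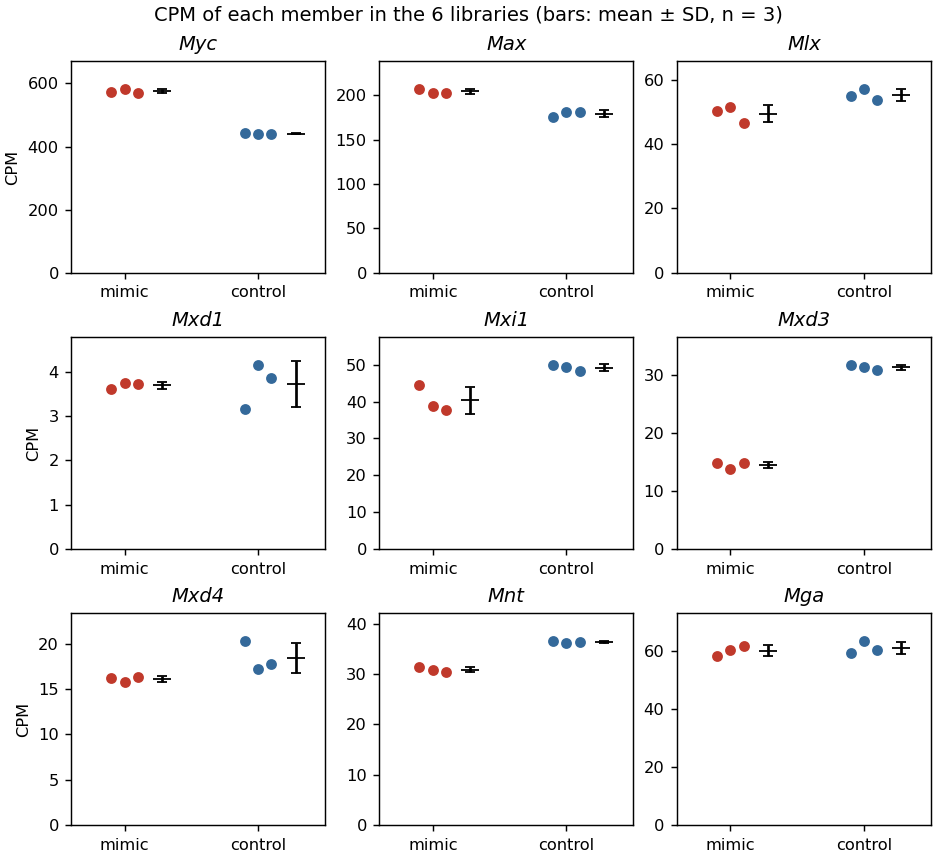
CPM (TMM-scaled) of 9 members on the y axes. The points are the 3 mimic and the 3 control libraries, and the bars give the mean and SD of each group (n = 3). The groups are separate for all but Mxd1 and Mga.

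**Figure D4:**
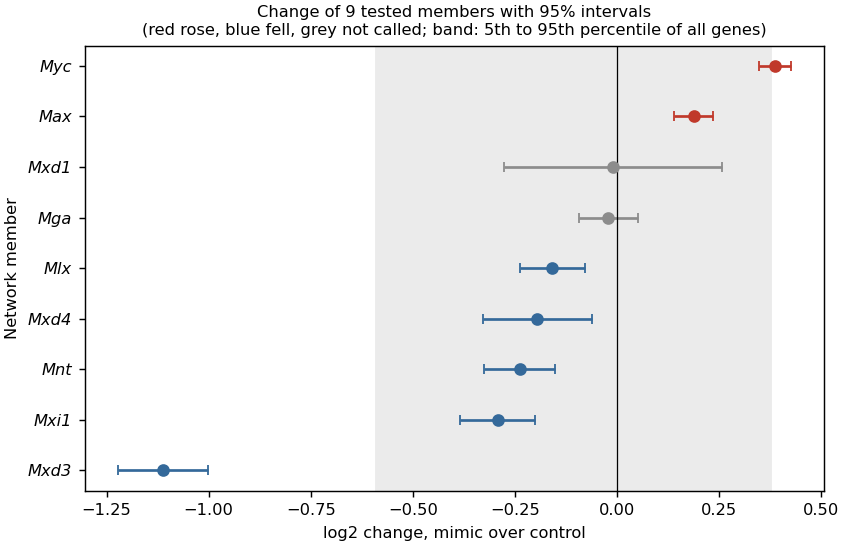
Log2 change of the 9 tested members, mimic over control, with 95% intervals. The grey band spans the 5th to 95th percentile of all tested genes, from -0.59 to 0.38. Mxd3 at -1.11 lies below the band and Myc at 0.39 just above it.

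The seed matches and the changes did not run together in each member. Of the 5 tested members with a 7-base or 8-base match, 3 fell (Mxd3, Mxi1, Mnt) and 2 did not pass (Mxd1, Mga). Of the 4 without one, Myc and Max rose and Mlx and Mxd4 fell. Of all tested genes with an annotated 3′ UTR, 20.9% held such a match. Among genes whose best match was a 7mer-m8, 36.6% fell and 19.6% rose, against 23.6% that fell and 30.7% that rose among genes with no match. With so few members this is a count and not a test.

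The balance between the activator and its opponents was compared per gene length, as ratios of FPKM within a library. Myc over Max was 3.66, 3.81 and 3.72 in mimic libraries and 3.34, 3.21 and 3.20 in control libraries. The sum of Mxd1, Mxi1, Mxd3, Mxd4, Mnt and Mga was 22.27, 21.45 and 21.34 FPKM in mimic libraries, against 31.36, 31.25 and 30.56 FPKM in control libraries. Myc exceeded this sum 8.46-fold on average in mimic libraries (SD 0.285, n = 3) and 4.63-fold in control libraries (SD 0.0425, n = 3), with no overlap. The fall of the sum came mostly from Mxd3, with 5.30 FPKM in mimic and 11.7 FPKM in control libraries. Its counts may hold reads of Prelid1. Mxd1 and Mga, also in the sum, were not called. Mxd3 alone made up 42.4% ± 1.51 of the summed FPKM of the 4 MXD genes in mimic libraries and 57.2% ± 0.236 in control libraries. These ratios follow from the member values above and describe mRNA, not protein.

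The E-box CACGTG, to which the network's dimers bind, was sought in the RefSeq promoter windows of GRCm38.p6 (250 bases before to 50 after the annotated start; the motif is its own reverse complement). Of the 9 members with a window, 4 held it (Max, Mxd4, Mnt and Mlx), against 11.8% of the 9776 tested genes with a window. The members with an E-box did not move one way: Max rose and the other 3 fell. The 30 bases around each are shown because they place the network's own motif in its members, with the motif in capitals.
Max: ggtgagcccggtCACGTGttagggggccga
Mlx: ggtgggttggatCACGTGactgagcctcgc
Mnt: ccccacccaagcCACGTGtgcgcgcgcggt
Mxd4: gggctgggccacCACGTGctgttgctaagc

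In Max the motif begins 3 bases before the annotated start (bases shown: chr12:76962234-76962263, minus strand). In Mlx it begins 40 bases before the start (chr11:101087238-101087267, plus strand), in Mnt 123 bases before (chr11:74830789-74830818, plus strand) and in Mxd4 219 bases before (chr5:34187912-34187941, minus strand). Binding was not measured in these cells.

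The wider network around MLX moved in both directions. Arrdc4, an arrestin-domain gene induced by MondoA and ChREBP, rose 2.06-fold to 3.21, 2.75 and 3.72 CPM in mimic libraries, against 1.76, 1.39 and 1.55 CPM in control libraries (adjusted p = 5.45e-06, edgeR). Its log2 change was 1.04 in that test and 0.33 with limma on the log2(FPKM + 1) scale, which understates the change of low genes. Its promoter window holds the E-box, with the motif in capitals.
Arrdc4: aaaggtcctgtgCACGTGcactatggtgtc

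These bases lie at chr7:68749414-68749443, minus strand. Txnip, the other standard MondoA target and an inhibitor of glucose uptake, was level, at 79.0 ± 1.31 CPM in mimic and 78.9 ± 1.01 CPM in control libraries (SD, n = 3 each; adjusted p = 0.98, edgeR), and its 3′ UTR holds a 7mer-m8 match. Mlxip, which encodes MondoA, rose 1.16-fold to 27.1 ± 0.922 CPM, against 23.3 ± 0.968 CPM in control libraries (adjusted p = 0.000619, edgeR). Mlxipl, which encodes ChREBP, fell to 5.94 ± 0.67 CPM in mimic libraries, against 8.06 ± 0.388 CPM in control libraries (log2 change -0.44, adjusted p = 0.000391, edgeR). On the log2(FPKM + 1) scale the log2 changes were 0.13 for Mlxip and -0.25 for Mlxipl. Pvt1, the noncoding RNA gene next to Myc, had 205 ± 7.37 CPM in mimic and 196 ± 1.78 CPM in control libraries. Its call (log2 change 0.06, adjusted p = 0.0317, edgeR) came with overlapping groups and was lost with total counts only (adjusted p = 0.848) and in 6 of the other 13 alternatives, among them the fits without mimic replicate 1, mimic replicate 2, control replicate 1 or control replicate 2.

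Genes that MYC is known to activate for making ribosomes were higher in the mimic libraries almost throughout. Of 28 nucleolar targets, all tested, 27 rose and 1 fell, with a median log2 change of 0.29. Over all tested genes 24.3% rose, and 24.8% fell, while of the 4199 with a mean of at least 50 CPM, which all 28 targets reach, 48.4% rose and 24.2% fell. Npm1, the nucleolar chaperone nucleophosmin, averaged 3703 ± 20.5 CPM in mimic and 2853 ± 33.8 CPM in control libraries (1.30-fold). Ncl, nucleolin, averaged 2782 ± 39.4 CPM in mimic and 2126 ± 41.1 CPM in control libraries (1.31-fold), although its 3′ UTR holds a 7mer-m8 match. Polr1a, the largest subunit of RNA polymerase I, rose 1.31-fold. The exception was Ubtf, the RNA polymerase I transcription factor, with a log2 change of -0.12 ± 0.02 (SE; adjusted p = 1.17e-05, edgeR). The counts were again 27 and 1 with total counts only. In 22 genes of the list with a promoter window, 4 held an E-box (18.2%), against 11.8% of all tested genes with a window.

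Most targets in metabolism and growth control were also higher in the mimic libraries. Of 31, 27 rose, 0 fell and 4 did not pass, with a median log2 change of 0.15. All 31 lie at 50 CPM or more, where 48.4% of genes rose and 24.2% fell. By edgeR 0 fell also at an unadjusted p under 0.05, and 0 fell by the DESeq2 Wald test or limma, but with total counts only 23 rose and 3 fell. Slc2a1, the glucose transporter GLUT1, rose 1.42-fold, to 194 ± 4.7 CPM in mimic libraries against 137 ± 3.37 CPM in control libraries. Slc7a5, the transporting subunit of a leucine carrier, averaged 444 ± 5.45 CPM in mimic and 329 ± 4.4 CPM in control libraries (log2 change 0.43). Pa2g4, a growth-regulated RNA-binding protein, averaged 1031 ± 18.8 CPM in mimic and 771 ± 6.04 CPM in control libraries (1.34-fold). In 26 genes of this list with a promoter window, 8 held an E-box (30.8%), against 11.8% of all tested genes with a window.

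Genes described as repressed by MYC did not move together. Of 10 tested, 3 rose (30.0%) and 4 fell (40.0%), against 24.3% and 24.8% of all tested genes, with a median log2 change of -0.04. The cell cycle inhibitors Cdkn1a, Cdkn2c and Cdkn1b fell, with log2 changes of -1.12, -0.995 and -0.41, and Cdkn1a holds an 8mer match of the microRNA. Gadd45g, a growth arrest gene, rose 1.58-fold, the matrix protein gene Thbs1 1.57-fold and the receptor gene Pdgfrb 1.25-fold. For Thbs1, at under 5 CPM, the log2 change was 0.65 in the count test and 0.22 on the log2(FPKM + 1) scale.

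**Figure D5:**
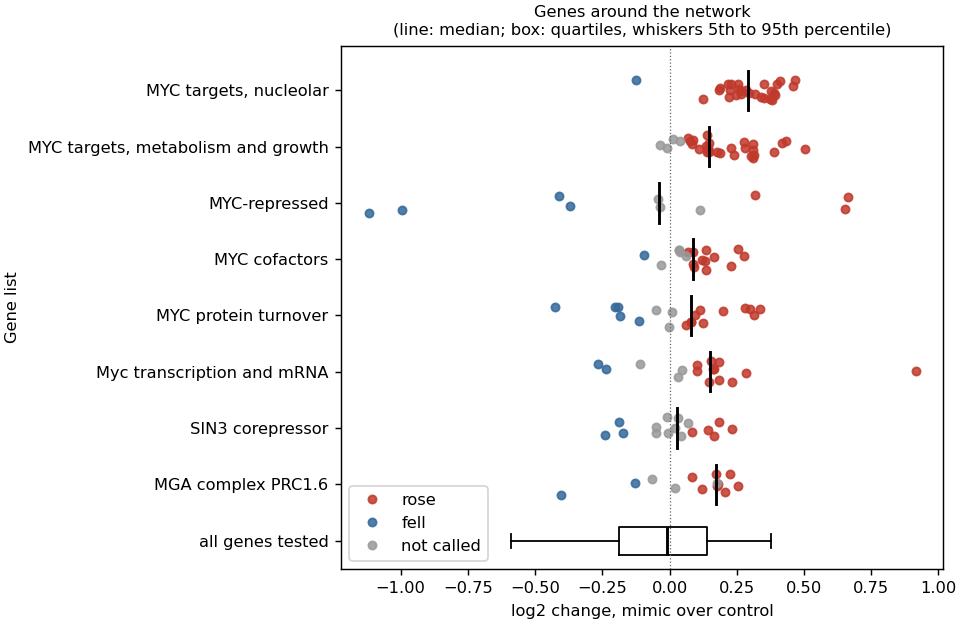
Log2 change, mimic over control, of each tested gene in 8 lists around the network. Each point is 1 gene, the black line is the list's median, and the box shows all 13779 tested genes. The nucleolar targets lie to the right of 0 except Ubtf, with a median of 0.29.

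Coactivators that work with MYC changed by small amounts. Of 18, 12 rose and 1 fell, with a median log2 change of 0.09. Of all tested genes 24.3% rose and 24.8% fell, but at a mean of at least 50 CPM, where 14 of the 18 lie, 48.4% rose and 24.2% fell. With total counts only 5 of the 18 rose and 2 fell. The AAA+ ATPase genes Ruvbl2 and Ruvbl1 rose 1.21-fold and 1.17-fold and the MYC-binding WD-repeat gene Wdr5 1.19-fold. Ep400, the ATPase of the TIP60 complex, was called lower by a small margin (log2 change -0.09, adjusted p = 0.0492, edgeR), a call that 9 of 14 alternatives did not keep, among them the fits without mimic replicate 2, mimic replicate 3, control replicate 1 or control replicate 2.

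Of 19 genes that act on the stability of the MYC protein, 11 rose and 5 fell (5 and 6 with total counts only). The 5 that fell make up 26.3%, near the 24.8% of all tested genes, and 14 of the 19 lie at 50 CPM or more, where 48.4% of genes rose. Set, an inhibitor of the phosphatase PP2A, rose 1.26-fold, and the phosphatase subunit gene Ppp2r5a rose by 0.20 on the log2 scale. The ubiquitin ligase gene Stub1, the F-box gene Skp2 and the deubiquitinase gene Usp37 fell, with log2 changes of -0.19, -0.19 and -0.20. Of 16 genes that act on Myc transcription or on its mRNA, 11 rose and 2 fell, and 10 lie at 50 CPM or more, where 48.4% of genes rose and 24.2% fell. Over all tested genes 24.3% rose and 24.8% fell. Igf2bp1, an RNA-binding protein that shields Myc mRNA from decay, rose 1.89-fold, to 8.88 ± 0.445 CPM in mimic libraries against 4.70 ± 0.241 CPM in control libraries (adjusted p = 2.08e-09, edgeR). On the log2(FPKM + 1) scale of limma, its log2 change was 0.32 in place of 0.92. Its paralogue Igf2bp2 rose 1.22-fold and the cold-shock protein gene Ybx1 1.17-fold. Zfp36l1, which promotes mRNA decay, and the Wnt pathway factor Tcf7l2 fell, with log2 changes of -0.27 and -0.23 (-0.15 for Tcf7l2 on the log2(FPKM + 1) scale).

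Genes of the SIN3 corepressor, which the MXD proteins recruit, were called in both directions. Of 16 tested genes of the SIN3 corepressor, 5 rose, 3 fell and 8 did not pass (4 rose and 5 fell with total counts only), and the median log2 change was 0.03. These are 31.3% and 18.8%, against 24.3% and 24.8% of all tested genes. Of the 16, 10 lie at a mean of at least 50 CPM, where 48.4% of genes rose and 24.2% fell. Sap18 rose 1.17-fold, the scaffold gene Sin3b 1.14-fold and the histone chaperone gene Rbbp4 by 0.14 on the log2 scale (0.09 with total counts only), while Brms1l had a log2 change of -0.24, Arid4b -0.19 and Arid4a -0.17. The call of Arid4b was lost with limma on log2(FPKM + 0.1), and its log2 change was -0.12 on the log2(FPKM + 1) scale. The call of Arid4a was lost in 5 of 14 alternatives, among them the fits without mimic replicate 1, mimic replicate 3 or control replicate 1. Of the 13 genes of the variant Polycomb complex that holds MGA, 8 rose and 2 fell (6 and 3 with total counts only), with a median log2 change of 0.17. Of these 13, 8 lie at 50 CPM or more, where 48.4% of genes rose and 24.2% fell. Over all tested genes the shares were 24.3% and 24.8%. The MBT-domain gene L3mbtl2 rose 1.17-fold, the heterochromatin protein gene Cbx3 1.13-fold and Wdr5, named above, belongs here too. The ubiquitin ligase gene Ring1 fell to 21.7 ± 0.531 CPM in mimic libraries, against 28.8 ± 0.276 CPM in control libraries (adjusted p = 3.78e-08, edgeR), and Tfdp1, the partner of E2F factors, had a log2 change of -0.13.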

How the data were processed

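RNA sequencing of 6 libraries of LLC cells was analysed, 3 transfected with mimics and 3 with control, grouped by their titles. Per the labels' protocols, polyadenylated RNA was captured and strand-specific paired-end libraries were made. Per the submitters' processing notes, HISAT2, DESeq2 and GRCm39 were used, with no versions given. For the counting step, neither tool nor strand setting is given in the sources used here. As deposited by the authors, the tables hold whole-number read counts for 24794 genes and FPKM values for 24494. In 482 symbols a low line stood in place of the hyphen and was changed back, where the hyphenated symbol is in the gene name table used here.

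The test on counts was the quasi-likelihood test of edgeR 4.0.16 (R 4.3.3; filterByExpr, TMM), called at an adjusted p under 0.05. CPM values use TMM-scaled library sizes, and the SE is the log2 change divided by the square root of F. FPKM values were used as deposited, for levels between genes. The counts of any 2 libraries of a group differed by more than sampling noise (mean chi-square per gene 1.84 to 2.23), so each was counted once. The steps were tested on simulated data. Intervals and limits cover counting error only where they rest on a count of 0. Alternatives were DESeq2 size factors, total counts, the DESeq2 1.42.0 Wald test, other filters, limma 3.58.1 on log2(FPKM + 1) and log2(FPKM + 0.1), a block for replicate number, leaving out single libraries in turn, and a threshold of 0.01.

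The members and gene lists were chosen with earlier results of these data known. All members were named. From each list the up to 3 risen and 3 fallen genes with the smallest adjusted p were named, and all genes of the wider MLX and MYC list; 1 gene that this rule names is not reported here. Prelid1, Psmc3ip, the cell type markers and the genes with seed matches in 2 lists were named after their values were seen.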

Additional observations from a re-analysis of the deposited data

How the results depend on the processing

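Myc, Max, Mxi1, Mxd3, Mnt and Mlx kept their direction and their call in each of the 14 alternatives, with log2 changes of 0.33 to 0.40 for Myc, 0.13 to 0.20 for Max, -0.36 to -0.24 for Mxi1, -1.17 to -1.02 for Mxd3, -0.29 to -0.22 for Mnt and -0.22 to -0.11 for Mlx. Mxd4 lost its call in the 3 alternatives given above, and at a threshold of 0.01. With single libraries left out, the uncalled log2 change of Mxd1 ranged from -0.11 to 0.070 and that of Mga from -0.040 to 0.0057. Mxd1 changed sign without mimic replicate 1 (0.012), control replicate 2 (0.070) or control replicate 3 (0.019), and Mga without mimic replicate 1 (0.0057) or control replicate 2 (0.0057). Among the coactivators 13 genes were called, but 7 with total counts only and 5 with limma on either FPKM scale. Among the genes of MYC stability 16 were called, but 10 with limma on either scale. The cause was not tested. With the replicate number as a block 6887 genes and 7 members were called, against 6772 and 7 without it, and the block changed no member's call. Deviations of same-numbered libraries correlated at 0.03, 0.07 and 0.05 over genes, and each library correlated best with its own number. The main fit did not pair the libraries, and whether same-numbered libraries belong together is not in the labels. Mxd1 and Mycn had too few counts for small differences to be seen.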

Other observations

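The SIN3 corepressor genes held seed matches more often than the tested genes as a whole, an observation made after the values were seen and given without a test. A match of 7 or 8 bases was present in 7 of the 16 tested genes (43.8%), against 20.9% of the 11585 genes searched. Their changes went in both directions: Brms1l, Arid4a and Arid4b fell, Sin3b, Hdac2 (log2 change 0.09) and Sap18 rose, and Rbbp7 (log2 change 0.04) was not called. Sap18 holds the only 8mer of the list and rose 1.17-fold. In the nucleolar list, 5 of 28 genes held a match (17.9%), and Ncl, Nop58, Dkc1, Wdr12 and Polr1a all rose, with log2 changes of 0.39, 0.22, 0.27, 0.35 and 0.39.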
